A study of Mus musculus with 23 samples.

Results

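Wild-type mouse ear at the edge of a punch wound, 24 h after injury, was compared with unwounded wild-type ear. The arrays were chosen by their titles, which gave the control genotype and the time, and they were 6 of the 23 arrays in the series, with 3 in each group. Ear wounds of wild-type mice served in the study as the normal course of repair, beside mice that close ear holes faster.

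The 24 h group came from 4-week-old female Rhbdf2+/+ mice of the C57BL/6J strain whose ears carried a 2-mm hole made with an ear punch 24 h earlier. A 3-mm biopsy punch took the 1-mm rim around that hole, so each sample was a ring of wound edge in which epidermis, dermis, cartilage and the cells that had entered the wound were mixed. The 0 h group came from mice of the same strain, genotype, sex and age whose treatment was labelled control. No allele other than Rhbdf2+/+ and no agent was labelled in either group. The size of the tissue piece taken from unwounded ears was not given separately in the sources used here, so a difference in the piece and a difference in time cannot be told apart in this comparison. The 2 h arrays, from the same kind of rim in wild-type mice, were used as a further reference (3 arrays). Ears of Rhbdf2cub/cub mice of the B6.Cg-Rhbdf2cub/J strain are called cub here. They were used at 24 h and 0 h (3 arrays each) to ask whether the change differed between genotypes. The cub 24 h arrays came from the same kind of rim around a 2-mm hole. The piece taken from unwounded cub ears was not given. Wild-type rims 15 min after the punch (3 arrays) entered the statistical fit and the plot over time. Rims of cub mice at 15 min (2 arrays) and 2 h (3 arrays) entered the fit. The mice of all these groups were 4 weeks old. The design text gave 3 mice for each time point, and the labels call every array a biological replicate.

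As background, a skin wound fills first with neutrophils and then with monocytes, which are drawn in by chemokines released from damaged epidermis and from the first cells to arrive. Keratinocytes at the edge leave their normal differentiation path, switch to a wound set of keratins, make antimicrobial and alarm proteins, and migrate under the clot. The dermis, fat, muscle, nerve and cartilage beside the cut are remodelled later, when fibroblasts replace a provisional matrix with collagen. In bulk tissue, fewer cells of a type and less RNA per cell cannot be told apart, and this holds for every result given here.

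RNA was hybridised to Affymetrix Mouse Gene 1.0 ST arrays, and all levels are deposited log2 RMA values, in which 1 unit is a 2-fold difference. Array medians lay between 6.37 and 6.46 over all 23 arrays, and the number of arrays limits the precision. Levels of different genes were not set against each other, since each gene has its own probes. The sums given below for some gene lists add linear values over genes, so genes with high values weigh most in them. The 3 arrays at 24 h correlated with each other at 0.9961 to 0.9977 (Pearson's r over genes, which do not count as replicates), the 3 at 0 h at 0.9973 to 0.9981, and arrays of different groups at 0.967 to 0.9709. The tissue label fitted the markers: the basal keratin Krt5 had values of 12.93, 12.95 and 12.92 at 24 h and 12.97, 12.98 and 12.95 at 0 h, and the spinous keratin Krt10 had 13.10, 13.10 and 13.06 at 24 h and 13.24, 13.19 and 13.18 at 0 h.

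Of 19938 genes tested, 4081 (20.5%) were higher and 4462 (22.4%) were lower at 24 h than at 0 h by limma, at a Benjamini-Hochberg adjusted p under 0.05. Most of these differences were small. At least 2-fold changes were called for 611 genes that were higher (3.06%) and 267 that were lower (1.34%). Larger changes lay on the higher side: 175 genes were at least 4-fold higher and 9 at least 4-fold lower, while 26 were at least 16-fold higher and 0 at least 16-fold lower. The 3 values at 24 h lay all above or all below the 3 at 0 h for 48.9% of genes. The median log2 difference over all genes was -0.02, and the shares of 42.8% called in all and of each direction are the background against which the gene lists below are read.

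The 20 largest increases held wound keratins, an EGFR ligand, chemokines, antimicrobial peptides and genes of neutrophils and macrophages. Krt16, which encodes a keratin of stressed and migrating keratinocytes, had 12.22, 12.21 and 12.47 at 24 h and 5.62, 5.82 and 7.15 at 0 h. The groups did not overlap, although unwounded replicate 3 was above the other two unwounded arrays, and Krt16 was 68.8-fold higher at 24 h, a log2 difference of 6.10 (SE 0.52, adjusted p = 3.67e-09). Il1b, the precursor of the inflammatory cytokine interleukin 1 beta, had 11.59, 11.44 and 11.49 at 24 h and 5.07, 6.47 and 5.28 at 0 h. All 3 wounded arrays were far above all 3 unwounded arrays, of which replicate 2 was the highest, and the log2 difference was 5.90 (SE 0.24, adjusted p = 5.85e-14). 2610528A11Rik, which RefSeq lists with the synonym Gpr15l, had 12.85, 12.81 and 12.80 at 24 h and 6.67, 7.42 and 7.11 at 0 h, with a log2 difference of 5.75 (SE 0.39, adjusted p = 1.19e-10). This gene encodes a ligand of the chemoattractant receptor GPR15, and its values left a wide gap between the groups. Acod1, which encodes the enzyme that makes itaconate in activated macrophages, was higher by 4.76 and Csta3, a cystatin A relative with near-identical neighbours on the array, by 4.68 on the log2 scale. Differences given here without a standard error are log2 differences, 24 h minus 0 h, whose standard errors lay between 0.04 and 0.52.

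The 20 largest decreases were smaller in size and were spread over the epidermis, dermis and muscle. Mt4, a metallothionein of differentiating squamous epithelium, had 9.36, 9.23 and 8.99 at 24 h and 12.03, 12.18 and 12.16 at 0 h. The groups stood well apart and Mt4 was 7.62-fold lower at 24 h, a log2 difference of -2.93 (SE 0.10, adjusted p = 5.89e-15). Sema3d, a secreted guidance protein, had 8.50, 8.37 and 8.34 at 24 h and 11.02, 11.02 and 10.90 at 0 h, and its log2 difference was -2.58 (SE 0.12, adjusted p = 3.97e-13). Alox12e, an epidermal lipoxygenase, differed by -2.53; Inmt, a methyltransferase for amines, by -2.50; and Skint4, of a family of immunoglobulin-like proteins of keratinocytes, by -2.38. Among the other large decreases, Tsc22d3, a glucocorticoid-induced leucine zipper protein, differed by -1.85, Mylk4, a muscle kinase, by -2.05, and Ccr4, a chemokine receptor of skin-homing T cells, by -1.81. In each of these 40 genes the groups did not overlap, which the choice of the genes required.

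**Figure D1:**
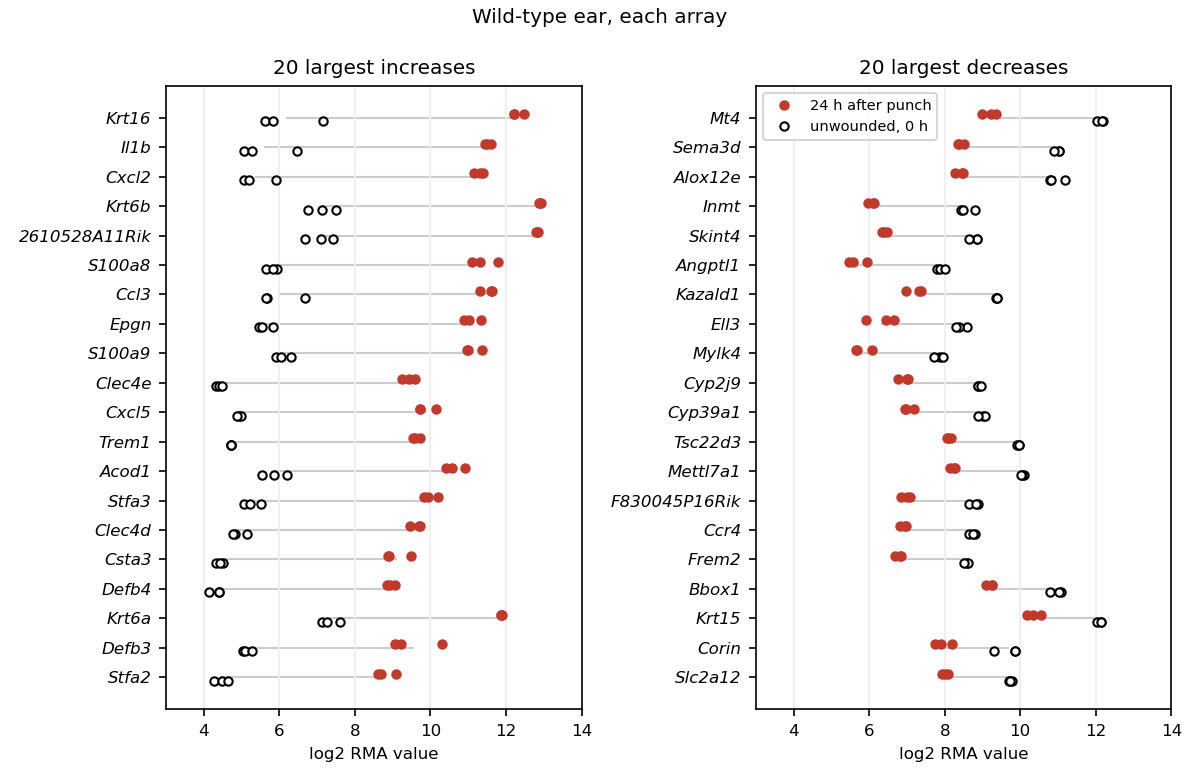
Log2 RMA values on the x axis for the 20 genes with the largest increase (left) and the 20 with the largest decrease (right), one row per gene; filled points are the 3 wild-type arrays 24 h after the punch, open points are the 3 unwounded arrays, and grey lines join the group means. The gaps are wider on the left, where Krt16 differed by 6.10, than on the right, where Mt4 differed by -2.93.

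Chemokines that draw neutrophils rose together. Of 10 listed CXC chemokines and their receptors, 9 were higher and 0 lower, with a median log2 difference of 2.73 against -0.02 over all genes. Cxcl15 was the member that was not called. Cxcl2 had 11.31, 11.39 and 11.14 at 24 h and 5.06, 5.92 and 5.19 at 0 h, with a log2 difference of 5.89 (SE 0.25, adjusted p = 7.11e-14). Cxcl5 had 10.14, 9.73 and 9.73 at 24 h and 4.92, 4.98 and 4.87 at 0 h, and differed by 4.94 (SE 0.10, adjusted p = 2.85e-18). Both genes encode ligands of the receptor CXCR2, and in both every wounded array lay far above every unwounded one. Cxcr2 itself, the receptor on neutrophils, had 10.46, 10.52 and 10.45 at 24 h and 6.81, 7.14 and 6.55 at 0 h, and differed by 3.64 (SE 0.21, adjusted p = 8.55e-12). Cxcl1, Cxcl3 and Ppbp, further ligands, were higher by 2.45, 3.02 and 3.12.

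Of 25 CC chemokines and receptors, 18 were higher and 1 was lower (median 1.25). Ccl3, an attractant for monocytes and neutrophils, had 11.64, 11.61 and 11.31 at 24 h and 5.68, 6.68 and 5.65 at 0 h, and differed by 5.52 (SE 0.21, adjusted p = 1.79e-14). Unwounded replicate 2 was again the highest of its group, and still far below the wounded arrays. Ccl2 and Ccl7, ligands of the monocyte receptor CCR2, differed by 3.87 and 4.03; Ccl20, a ligand for CCR6, by 3.51; and the receptor Ccr1 by 3.97. The lower member was Cx3cl1, fractalkine, at -0.45.

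Among 31 inflammatory cytokines and receptors, 22 were higher and 4 lower (median 0.55). Il6 had 8.31, 7.89 and 8.62 at 24 h and 4.13, 4.65 and 4.57 at 0 h, and differed by 3.82 (SE 0.22, adjusted p = 8.65e-12), with no overlap between the groups. Osm, a cytokine of the interleukin 6 family made by myeloid cells, differed by 2.80 and its receptor subunit Osmr by 1.74. Tslp, a keratinocyte cytokine, had 7.05, 7.22 and 7.40 at 24 h and 5.07, 5.29 and 5.29 at 0 h, a difference of 2.01 (SE 0.17, adjusted p = 2.3e-09). Il24, of the interleukin 20 family, had 7.32, 7.19 and 7.38 at 24 h and 4.97, 4.93 and 4.90 at 0 h, and differed by 2.36 (SE 0.11, adjusted p = 5.11e-13). The wounded values were again all above the unwounded ones. The 4 lower members were Il20rb and Il20ra, the subunits of a receptor for interleukins 19, 20 and 24, at -1.34 and -1.06, with Il18 at -0.68 and Il6ra at -0.51. The ligand Il24 was thus higher while both of these receptor subunits were lower; these 4 genes and Osmr were named after their values were seen. Ptgs2, the inducible cyclooxygenase of prostaglandin synthesis, had 11.10, 10.98 and 11.12 at 24 h and 6.10, 8.08 and 6.72 at 0 h, and differed by 4.10 (SE 0.33, adjusted p = 1.31e-09), with unwounded replicate 2 the highest of its group. Over the 24 prostaglandin, leukotriene and kinin genes, 10 were higher and 8 lower (median 0.05). Ptges, which completes prostaglandin E2, was higher by 1.34, the leukotriene B4 receptor Ltb4r1 by 1.24 and the phospholipase Pla2g4e by 1.94, while Alox5, the first enzyme of leukotriene synthesis, was lower at -0.25, a call lost when wild-type 24 h replicate 1 was left out.

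Neutrophil markers shifted together. Of 29 markers tested, 25 were higher, 1 was lower and 3 were not called, with a median log2 difference of 2.58. S100a8, a calcium-binding alarm protein abundant in neutrophils, had 11.78, 11.31 and 11.11 at 24 h and 5.65, 5.94 and 5.82 at 0 h, and differed by 5.60 (SE 0.23, adjusted p = 3.83e-14). Csf3r, the receptor for granulocyte colony-stimulating factor, had 8.86, 8.83 and 8.70 at 24 h and 5.31, 5.54 and 5.60 at 0 h, and differed by 3.31 (SE 0.15, adjusted p = 1.61e-13). Both genes separated the groups without overlap. Ly6g, the antigen used to define mouse neutrophils, had 6.94, 6.45 and 5.14 at 24 h and 4.33, 4.24 and 4.27 at 0 h; its wounded replicate 3 was much lower than the other two, though still above every unwounded array, and it differed by 1.90 (SE 0.25, adjusted p = 1.84e-06). Mmp8, the neutrophil collagenase, differed by 2.51, the pattern receptors Clec4d and Clec4e by 4.71 and 5.01, and Trem1 by 4.90. The 3 members not called were the granule genes Camp at 0.02, Ltf at 0.15 and Ngp at 0.21, which are transcribed in the bone marrow before neutrophils leave it, and the lower one was Wfdc21 at -0.61. The early granule genes Mpo, Elane, Prtn3, Ctsg and Ms4a3 were not called either, 0 of 5 in each direction, and Mpo had 5.78, 5.85 and 5.84 at 24 h and 5.75, 5.86 and 5.75 at 0 h. The linear values of the 29 markers summed, on the log2 scale, to 14.41 to 14.67 at 24 h and 11.91 to 12.06 at 0 h. S100a8, S100a9 and Lcn2 are also made by stressed keratinocytes, and their source was not tested.

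Monocyte and inflammatory macrophage markers moved the same way, with 19 of 22 higher, 1 lower and a median of 2.21. Fcgr1, the high-affinity receptor for immunoglobulin G, had 8.91, 8.87 and 8.67 at 24 h and 6.17, 6.24 and 6.22 at 0 h, and differed by 2.61 (SE 0.13, adjusted p = 7.77e-13). Cd14, the co-receptor for lipopolysaccharide, had 10.07, 10.37 and 10.14 at 24 h and 5.99, 6.11 and 6.39 at 0 h, and differed by 4.03 (SE 0.16, adjusted p = 3.12e-14). The groups lay apart in both. Ms4a4c and Ms4a6d differed by 3.78 and 3.11, the scavenger receptor Msr1 by 2.61 and Chil3, a chitinase-like protein of alternatively activated mouse macrophages, by 2.58. Gpnmb, a membrane glycoprotein of macrophages and pigment cells, was the lower one at -0.51. The 22 markers summed to 14.21 to 14.47 at 24 h and 13.51 to 13.56 at 0 h on the log2 scale. This sum included Fn1 and Vcan, which are also given below as provisional matrix genes.

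Lists for cells that live in unwounded skin had mixed counts. Of 20 resident macrophage markers, 6 were higher, 4 lower and 10 not called, with a median of 0.02. Mrc1, the mannose receptor, was higher by 1.26 and Lyve1 by 1.16, while the lectin Mgl2 was lower by a log2 difference of -0.83 and Cbr2 of -0.77. Of 16 T cell markers, 2 were higher and 6 lower, with Cd3g at -0.74 and Cd3e at -0.48; the 2 higher were Thy1, which fibroblasts also express, and Icos. Cd207, the Langerhans cell lectin, had 7.42, 7.23 and 7.20 at 24 h and 7.81, 7.94 and 7.90 at 0 h, a difference of -0.60 (SE 0.10, adjusted p = 2.61e-05), and the wounded arrays lay below all unwounded ones. Of 17 genes of Langerhans and dendritic cells and of MHC class II, 6 were higher and 3 lower, among them Ccr7, the receptor of dendritic cells that leave for lymph nodes, higher by 1.29. Of 6 B cell markers, 0 were called in either direction, and Cd79a and Ms4a1 stayed between 4.08 and 4.63 on all 6 arrays, near the low end of the scale.

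Among 13 mast cell markers the defining proteases were not called, with Cma1 at 0.17, Mcpt4 at 0.15 and Cpa3 at -0.17. The 3 higher members were Hdc, Srgn and Fcer1a. Hdc, the enzyme that makes histamine, had 10.31, 10.59 and 10.58 at 24 h and 6.85, 7.14 and 6.84 at 0 h, and differed by 3.55 (SE 0.16, adjusted p = 1.37e-13); it is made by neutrophils and macrophages as well as mast cells. Mrgprb2, a mast cell receptor, was lower at -0.84. The summed values of the list, 13.31 to 13.5 at 24 h and 12.22 to 12.34 at 0 h on the log2 scale, included Hdc and Srgn.

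At the epidermal edge, 22 of 28 listed wound-edge keratinocyte genes were higher and 1, Krt8, was lower, with a median of 0.77. The call of Krt8 was lost without wild-type 24 h replicate 1 or 0 h replicate 3. Krt6b had 12.93, 12.90 and 12.88 at 24 h and 6.76, 7.12 and 7.51 at 0 h and Krt6a had 11.90, 11.86 and 11.87 at 24 h and 7.13, 7.25 and 7.61 at 0 h. These keratins, which pair with Krt16, differed by 5.77 and 4.55, without overlap; they are near-identical copies, and how far their probes read each other could not be settled from the files. Gjb2, the gap junction protein connexin 26, had 11.95, 11.89 and 11.93 at 24 h and 8.35, 8.54 and 8.62 at 0 h, and differed by 3.42 (SE 0.13, adjusted p = 1.02e-14), and Gjb6, connexin 30, differed by 2.50. The urokinase receptor Plaur, which focuses plasmin at migrating cells, had 10.09, 10.12 and 10.03 at 24 h and 6.48, 6.83 and 6.57 at 0 h, and differed by 3.45 (SE 0.12, adjusted p = 3.14e-15). Itgb4 and Cd44, an integrin and a hyaluronan receptor, were higher by 0.59 and 1.58.

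The basal keratins stayed close to their unwounded level: Krt14 was higher by 0.21 and Krt5 was not called at -0.03. Krt15, a keratin of resting basal cells and of hair follicle stem cells, had 10.18, 10.56 and 10.33 at 24 h and 12.14, 12.02 and 12.15 at 0 h, and differed by -1.75 (SE 0.12, adjusted p = 1.67e-10), with the wounded arrays all lower. Of 42 epidermal differentiation and barrier genes, 7 were higher and 18 lower (median -0.17). Flg2, a filaggrin relative of the horny layer, was lower at -1.27, Ivl, involucrin, at -0.79 and Lor, loricrin, at -0.37, whereas Tgm3, a transglutaminase of the cornified envelope, was higher by 1.05. Krt10 differed by -0.12, and that call was lost in 10 of the 15 other settings tried. Of 40 hair follicle genes, 1 was higher, 10 were lower and 29 were not called. The median of this list was -0.02, as over all genes. Its share of genes called lower was close to the 22.4% over all genes, and its share called higher was below the 20.5% over all genes. Lgr6, a marker of upper follicle stem cells, had the largest decrease in the list, at -1.29. Sebaceous gland lipid genes were lower in 14 of 25 and higher in 3 (median -0.30), among them Mogat1, an acyltransferase, at -0.99, and the melanocortin receptor Mc5r at -0.95. Cholesterol synthesis and uptake genes were lower in 14 of 23 and higher in 1, Ebp, whose call was lost in 5 of the 15 other settings (median -0.25). Hmgcs1, at the entry of the pathway, was lower at -0.53.

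Stress cornification and alarm genes, which strengthen the epidermal barrier in inflamed skin, rose as a group: 28 of 33 were higher and 1 lower, with a median of 1.60. Sprr2d, a small proline-rich protein of the cornified envelope, had 10.97, 10.51 and 10.39 at 24 h and 6.21, 6.78 and 7.33 at 0 h, and differed by 3.85 (SE 0.36, adjusted p = 1.59e-08). Sprr1b had 12.75, 12.67 and 12.58 at 24 h and 8.21, 9.67 and 10.80 at 0 h, and differed by 3.11 (SE 0.51, adjusted p = 3.32e-05). In both genes unwounded replicate 3 was the highest of its group, and the spread between unwounded ears was wide beside that between wounded ones. Sprr2e, Sprr2f and Lce3e differed by 3.72, 3.43 and 3.17. The lower member was the protease inhibitor Serpinb12 at -0.62. The Sprr2 and Lce3 genes lie in families of near-identical copies, so signal may be shared between their probe sets.

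The upstream DNA of 5 of the genes with large increases is shown because each window holds the letters TGANTCA, the binding sequence of AP-1, the FOS and JUN family of transcription factors, and because the windows of the Sprr2 copies show how alike these genes are. Sequences are from RefSeq on GRCm38.p6, 200 bases that end just before the annotated start, 5′ to 3′ on the gene's own strand, with the motif in capitals. The windows lie at chr3:92338940-92339139 (+) for Sprr2d, chr3:92351943-92352142 (+) for Sprr2e, chr3:92364987-92365186 (+) for Sprr2f, chr3:92438780-92438979 (-) for Sprr1b and chr9:7272314-7272513 (+) for Mmp13, a collagenase described further on.
Sprr2d: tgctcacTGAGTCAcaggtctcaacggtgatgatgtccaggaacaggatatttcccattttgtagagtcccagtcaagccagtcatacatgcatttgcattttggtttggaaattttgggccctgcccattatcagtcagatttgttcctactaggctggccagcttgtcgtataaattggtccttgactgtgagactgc
Sprr2e: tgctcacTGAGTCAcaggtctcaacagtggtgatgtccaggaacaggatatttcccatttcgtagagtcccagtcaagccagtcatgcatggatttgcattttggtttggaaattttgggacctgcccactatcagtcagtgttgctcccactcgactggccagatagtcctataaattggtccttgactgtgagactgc
Sprr2f: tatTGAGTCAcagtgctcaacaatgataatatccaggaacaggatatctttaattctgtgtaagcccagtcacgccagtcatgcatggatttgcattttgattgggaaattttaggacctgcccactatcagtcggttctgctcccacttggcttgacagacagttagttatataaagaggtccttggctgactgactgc
Sprr1b: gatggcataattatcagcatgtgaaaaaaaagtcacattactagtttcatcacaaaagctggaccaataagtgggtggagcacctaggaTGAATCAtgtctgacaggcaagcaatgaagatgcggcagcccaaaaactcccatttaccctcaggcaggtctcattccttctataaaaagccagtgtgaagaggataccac
Mmp13: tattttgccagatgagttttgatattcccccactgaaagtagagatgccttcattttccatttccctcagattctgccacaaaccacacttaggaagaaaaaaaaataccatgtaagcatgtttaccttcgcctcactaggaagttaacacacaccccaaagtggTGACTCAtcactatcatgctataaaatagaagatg

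The motif began 193 bases before the start in Sprr2d and Sprr2e, 197 in Sprr2f, 111 in Sprr1b and 35 in Mmp13. In global alignments the windows of Sprr2d and Sprr2e were identical at 92.0% of positions, those of Sprr2e and Sprr2f at 78.4% and those of Sprr2d and Sprr2f at 75.5%. In the full RefSeq windows, from 250 bases before to 50 after a start, TGANTCA occurred for 8.06% of all genes with a promoter listed (1255 of 15563), for 15.5% of genes at least 2-fold higher at 24 h (70 of 453) and for 8.08% of genes at least 2-fold lower (16 of 198). Among stress cornification genes it occurred in 12 of 31 windows (38.7%), and among those of them at least 2-fold higher in 7 of 19 (36.8%), so within this list the share was no larger in the members that rose most. Both counts were made after the values were seen, and near-identical copies in that list are not independent. The letters read the same on both strands, and a match describes the sequence alone.

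Antimicrobial and acute phase proteins were higher in 13 of 22 and lower in 2 of 22 (median 1.07). Defb4, a beta-defensin, had 9.06, 8.85 and 8.93 at 24 h and 4.40, 4.14 and 4.39 at 0 h, and differed by 4.64 (SE 0.11, adjusted p = 9.84e-18). Lcn2, which binds bacterial iron carriers, had 11.60, 11.48 and 11.67 at 24 h and 7.35, 7.35 and 7.36 at 0 h, and differed by 4.23 (SE 0.10, adjusted p = 1.12e-17). Both were far above the unwounded values in all 3 wounded arrays. Defb3 differed by 4.40, the protease inhibitor Slpi by 3.37, Saa3 by 3.14 and Chil1 by 2.79. Camp, the precursor of cathelicidin, was not called at 0.02. The 2 lower were Defb6 and Lyz1.

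**Figure D2:**
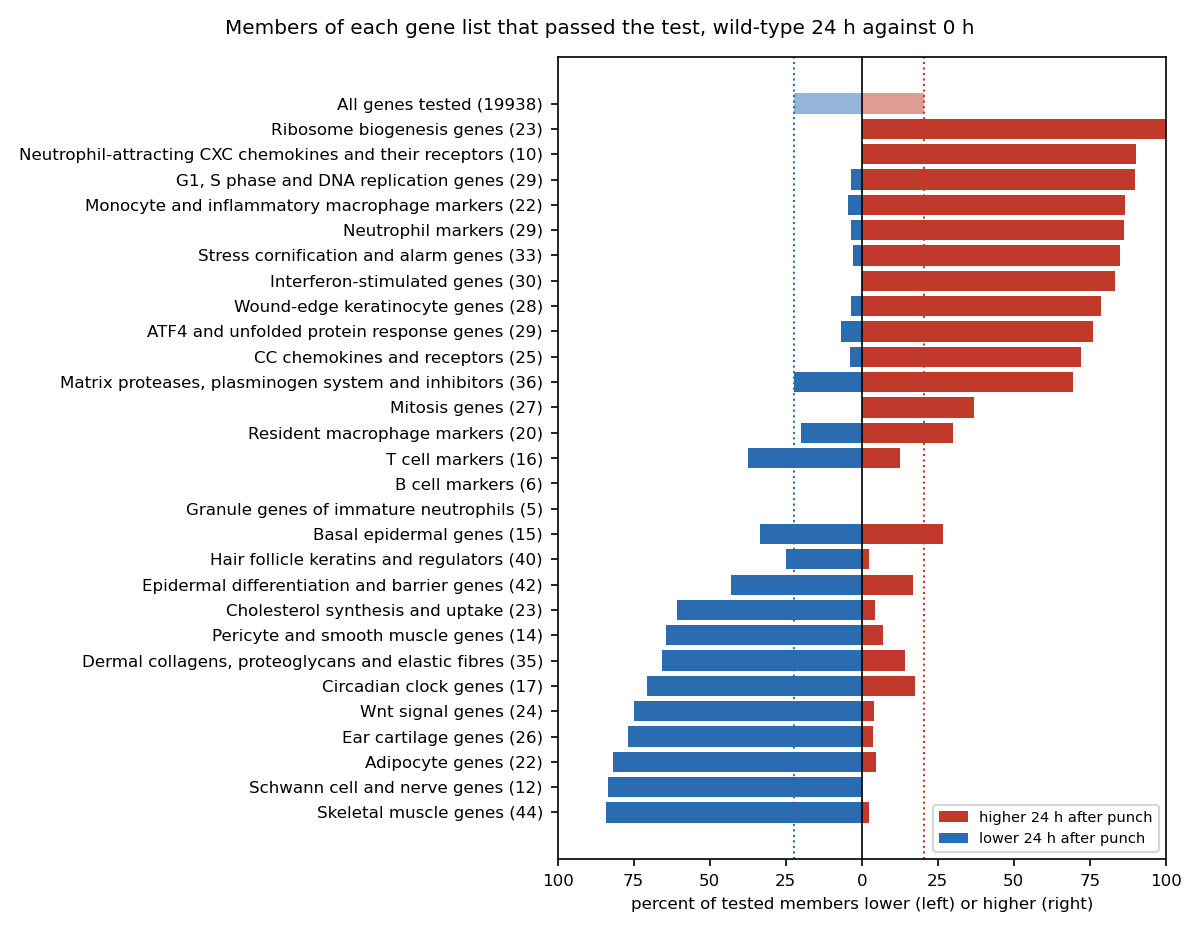
Percent of the tested members of each gene list that were higher (right of 0) or lower (left of 0) 24 h after the punch, with the number tested in brackets; dotted lines and the top row give the shares over all 19938 genes, 20.5% higher and 22.4% lower. All 23 ribosome biogenesis genes were higher and skeletal muscle genes were lower in 37 of 44.

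EGFR ligands, which drive keratinocyte migration and division, did not move as one. Of 17 ligands, receptors and sheddases, 6 were higher and 8 lower. Epgn, epigen, had 10.89, 11.03 and 11.35 at 24 h and 5.45, 5.55 and 5.82 at 0 h, and differed by 5.48 (SE 0.16, adjusted p = 3.12e-16). It was the largest change in this list and separated the groups fully. Hbegf and Tgfa differed by 2.81 and 1.38, and Nrg1, a ligand of related ErbB receptors rather than of EGFR, by 1.22. Btc, betacellulin, had 6.27, 6.54 and 6.43 at 24 h and 8.28, 7.55 and 7.37 at 0 h, and differed by -1.32 (SE 0.19, adjusted p = 4.66e-06), with every wounded array lower. Ereg, epiregulin, had 7.22, 7.12 and 7.46 at 24 h and 7.88, 8.22 and 7.35 at 0 h, groups that overlapped, and its call at -0.55 (SE 0.21, adjusted p = 0.0368) was lost in 6 of the 15 other settings. Adam10 and Rhbdf2 were not called, at 0.07 and 0.11.

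Of 34 immediate early and MAPK feedback genes, 26 were higher and 3 lower (median 0.55). Fosl1, an AP-1 subunit of migrating keratinocytes, had 9.33, 9.45 and 9.82 at 24 h and 6.76, 7.35 and 7.10 at 0 h, and differed by 2.46 (SE 0.14, adjusted p = 1.1e-11). Dusp6 and Phlda1 were higher by 2.00 and 1.53. Jun, Fosb, Egr3, Nr4a1 and Dusp1 were not called, at 0.05, -0.25, 0.20, 0.48 and 0.17. Of 19 NF-kB feedback genes, 14 were higher and 1 lower. Bcl3, an atypical inhibitor of NF-kB, was at 2.91 and Socs3, a brake on cytokine signals, at 2.10. A further array row for Socs3, with a lower mean level, was higher by only 0.72. Nfkbia was not called at 0.17.

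Of 36 genes of matrix proteases, the plasminogen system and their inhibitors, 25 were higher and 8 were lower (median 0.56). Mmp13, the main rodent interstitial collagenase, had 10.07, 9.80 and 10.02 at 24 h and 5.45, 6.55 and 5.56 at 0 h, and differed by 4.11 (SE 0.20, adjusted p = 8.83e-13); unwounded replicate 2 was the highest of its group and the groups did not overlap. Mmp3, stromelysin 1, had 11.35, 11.21 and 11.35 at 24 h and 8.74, 9.07 and 9.11 at 0 h, and differed by 2.33 (SE 0.12, adjusted p = 2.07e-12). Timp1, an inhibitor of these enzymes, had 12.11, 11.81 and 11.76 at 24 h and 7.58, 8.17 and 8.29 at 0 h, and differed by 3.88 (SE 0.14, adjusted p = 8.57e-15). Enzyme and inhibitor genes were thus higher in the same wounded ears. Adam8 was higher by 2.67 and Mmp1b by 2.69, and Mmp14 was not called at 0.04.

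Over the 33 provisional matrix and matricellular genes, 15 were higher, 6 lower and 12 not called (median 0.22). Has3, a hyaluronan synthase, had 8.64, 9.08 and 9.22 at 24 h and 5.17, 5.25 and 5.40 at 0 h, and differed by 3.71 (SE 0.11, adjusted p = 4.51e-16), and Has2 had 8.91, 9.26 and 9.95 at 24 h and 6.94, 6.95 and 6.72 at 0 h, with a difference of 2.50 (SE 0.18, adjusted p = 2.13e-10). Tnfaip6, which links hyaluronan to proteins, differed by 2.45, Tnc, tenascin C, by 2.26 and Vcan, versican, by 2.24. The wounded values of all 5 genes lay above the unwounded ones. Fn1, fibronectin, and Acta2, the actin of smooth muscle and myofibroblasts, were not called, at -0.14 and -0.03.

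Collagens, proteoglycans and elastic fibre genes of the dermis were lower in 23 of 35, higher in 5 and had a median of -0.37. Col1a1 had 10.52, 10.89 and 10.87 at 24 h and 11.57, 11.46 and 11.27 at 0 h, and differed by -0.67 (SE 0.10, adjusted p = 8.89e-06). Eln, elastin, had 8.79, 8.93 and 8.67 at 24 h and 9.77, 9.87 and 10.17 at 0 h, and differed by -1.14 (SE 0.11, adjusted p = 1.52e-08). The wounded arrays lay below the unwounded ones in both. Ogn and Aspn, small proteoglycans of collagen fibrils, differed by -1.30 and -1.17, and Clec3b, tetranectin, by -1.24. The 5 higher were Col12a1, Col4a1, Col4a2, Pdgfra and Thy1. Of 27 activin, TGF-beta and BMP ligands and inhibitors, 9 were higher and 11 lower (median -0.03). Inhba, the activin A subunit, had 8.55, 8.64 and 8.67 at 24 h and 6.42, 6.39 and 6.70 at 0 h, a difference of 2.12 (SE 0.12, adjusted p = 1.35e-11), and Tgfb1 was higher by 0.95, while Tgfb3 had 8.35, 8.42 and 8.22 at 24 h and 9.72, 9.65 and 9.80 at 0 h, a difference of -1.39 (SE 0.08, adjusted p = 8.38e-12), and Tgfb2 and Bmp4 were lower at -0.97 and -0.95. Of 24 Wnt signal genes, 18 were lower and 1, Wnt16, was higher (median -0.46), among them the target Axin2 at -0.97 and the inhibitors Wif1 at -0.95 and Frzb at -1.22.

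Genes of the tissues beside the cut were lower in large shares. Of 44 skeletal muscle genes, 37 were lower and 1, Xirp1, was higher (median -0.71). Ckm, muscle creatine kinase, had 11.32, 10.89 and 11 at 24 h and 11.90, 11.91 and 11.79 at 0 h, and differed by -0.80 (SE 0.11, adjusted p = 2.93e-06). Ttn, the giant sarcomere protein, had 9.16, 8.75 and 8.86 at 24 h and 10.45, 10.24 and 9.73 at 0 h, and differed by -1.22 (SE 0.16, adjusted p = 2.59e-06). The muscle list summed to 15.12 to 15.44 at 24 h and 15.78 to 16.06 at 0 h on the log2 scale. Of 12 myogenic regulators and repair genes, 4 were higher: Myod1 and Myog by 0.53 and 0.40, and the stretch-responsive Ankrd1 and Ankrd2 by 3.34 and 0.98. Mstn, the growth inhibitor myostatin, was lower at -1.37.

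Of 26 ear cartilage genes, 20 were lower and 1 was higher (median -0.50). Acan, the proteoglycan aggrecan, had 9.19, 8.89 and 8.78 at 24 h and 9.47, 9.98 and 9.94 at 0 h, and differed by -0.84 (SE 0.16, adjusted p = 0.000162), and Ucma and Cnmd, proteins of the cartilage matrix, differed by -1.40 and -1.33. The higher member was Prg4, lubricin, which had 10.36, 9.59 and 9.69 at 24 h and 6.86, 7.70 and 8.15 at 0 h, and differed by 2.31 (SE 0.36, adjusted p = 1.69e-05). Col2a1 was lower by a log2 difference of -0.29, and this call was lost in 8 of the 15 other settings. The list summed to 13.35 to 13.69 at 24 h and 13.98 to 14.29 at 0 h on the log2 scale. Of 22 adipocyte genes, 18 were lower and 1, Agpat2, was higher (median -0.57), though the call of Agpat2 was lost in 9 of the 15 other settings. Lpl, lipoprotein lipase, was at -1.23 and Plin1, the lipid droplet coat, at -0.96; the list summed to 13.12 to 13.38 at 24 h and 13.7 to 13.91 at 0 h.

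Schwann cell and nerve genes were lower in 10 of 12 (median -0.57), among them Cdh19, which had 5.08, 4.89 and 4.81 at 24 h and 6.50, 6.71 and 6.53 at 0 h, a difference of -1.65 (SE 0.13, adjusted p = 1.05e-09). Ngfr and S100b were lower at -1.07 and -1.35, and Sox10 was not called at -0.12; the list summed to 12.78 to 13 at 24 h and 13.32 to 13.37 at 0 h on the log2 scale. Pericyte and smooth muscle genes were lower in 9 of 14, with Rgs5 at -0.91 and Abcc9 at -1.01, and Acta2 not called. Of 24 endothelial genes, 12 were higher and 4 lower; Icam1, an adhesion molecule for leukocytes, was higher by 1.64, Apln by 1.41 and Angpt2 by 0.95, and Cd34 was lower at -0.80. Of 28 other growth and vessel factors, 9 were higher and 11 lower (median -0.07). Vegfa, the main vessel growth factor, had 9.44, 9.25 and 9.29 at 24 h and 8.27, 8.33 and 8.24 at 0 h, a difference of 1.05 (SE 0.11, adjusted p = 8.1e-08), and no wounded value overlapped an unwounded one. Fgf23, a phosphate hormone, had 9.29, 9.53 and 9.64 at 24 h and 6.51, 6.31 and 6.46 at 0 h, a difference of 3.06 (SE 0.14, adjusted p = 4.93e-13). Fgf7, a keratinocyte growth factor of fibroblasts, was higher by 0.69, and Stc2, stanniocalcin 2, was lower at -0.97. Muscle, cartilage, fat and nerve markers thus moved with the lower genes of the dermis, and the part of tissue composition in those values was not tested.

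By the test of 24 h against 2 h rims, 41 of 44 skeletal muscle genes were lower and 0 higher (median -0.67), 21 of 26 cartilage genes were lower and 1 higher (-0.41), 17 of 22 adipocyte genes were lower and 1 higher (-0.60), 10 of 12 Schwann cell and nerve genes were lower and 0 higher (-0.63) and 23 of 35 dermal matrix genes were lower and 5 higher (-0.39). Over all genes tested, 20.4% were lower and 21.1% higher in that comparison, with a median of -0.02. Against 2 h, the values at 24 h were also lower for Ckm, by -0.76 (SE 0.11, adjusted p = 5.9e-06), for Acan, by -0.91 (SE 0.16, adjusted p = 6.89e-05), for Lpl, by -1.12 (SE 0.14, adjusted p = 1.59e-06), for Cdh19, by -1.53 (SE 0.13, adjusted p = 4.3e-09), and for Col1a1, by -0.77 (SE 0.10, adjusted p = 1.8e-06). Both comparisons use the same 24 h arrays, so they do not count as separate evidence.

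**Figure D3:**
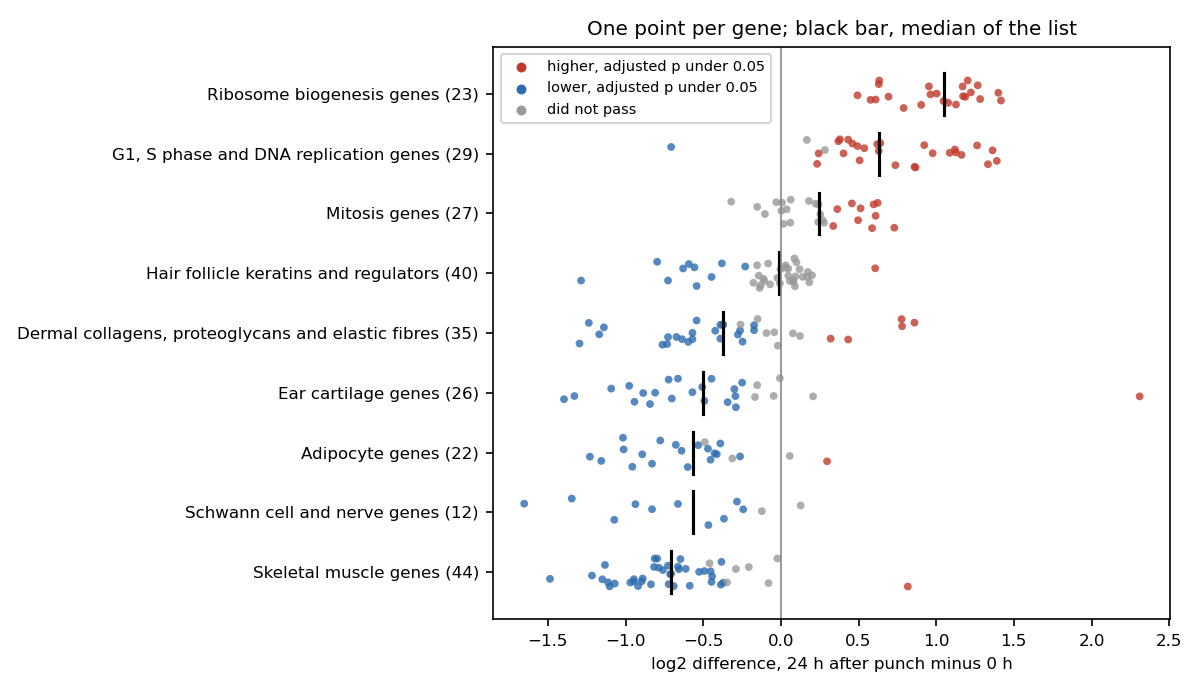
Log2 difference of each tested gene in 9 lists, 24 h minus 0 h, with the number tested in brackets; red points were higher and blue points lower at an adjusted p under 0.05, grey points did not pass, and black bars are list medians. Ribosome biogenesis genes all lie right of 0 (median 1.05), mitosis genes centre on 0.24, and muscle genes centre on -0.71.

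Genes of growth and division were counted by stage. All 23 ribosome biogenesis genes tested were higher, with a median of 1.05, and 13 were at least 2-fold higher. Wdr12, a factor of the large ribosomal subunit, had 9.0, 8.96 and 9.09 at 24 h and 7.60, 7.64 and 7.56 at 0 h, and differed by 1.42 (SE 0.10, adjusted p = 2.25e-10). Nop56, of the particles that methylate ribosomal RNA, had 10.90, 11.08 and 11.04 at 24 h and 9.69, 9.64 and 9.84 at 0 h, and differed by 1.28 (SE 0.08, adjusted p = 4.5e-11). Polr1b, a subunit of RNA polymerase I, differed by 1.19 and Ncl, nucleolin, by 0.63. No wounded array overlapped an unwounded one in these genes.

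Of 29 genes of G1, S phase and DNA replication, 26 were higher and 1, Ccnd2, was lower (median 0.63). Mcm2, of the replicative helicase, had 9.45, 9.66 and 9.77 at 24 h and 8.53, 8.47 and 8.62 at 0 h, and differed by 1.09 (SE 0.11, adjusted p = 2.74e-08). Rrm2, which supplies deoxynucleotides, had 9.40, 9.52 and 9.78 at 24 h and 8.38, 8.20 and 8.12 at 0 h, and differed by 1.33 (SE 0.14, adjusted p = 5.88e-08). Ccne1, cyclin E1, differed by 1.13 and Gins1 by 1.36, and Ccnd1 was not called at 0.17. Of 27 mitosis genes, 10 were higher, 0 lower and 17 not called, with a median of 0.24 and 0 at least 2-fold higher, against 8 of 29 replication genes. Mki67, the proliferation antigen, had 9.34, 9.07 and 9.50 at 24 h and 9.35, 9.50 and 9.01 at 0 h, with overlapping groups and a difference of 0.02 (SE 0.14, adjusted p = 0.946). Top2a, Plk1 and Cdk1 were higher by 0.73, 0.61 and 0.59. No test compared the replication list with the mitosis list.

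Protein folding and amino acid supply genes rose in 22 of 29 (median 0.59), with 2 lower, Herpud1 and Ddit4. The call of Ddit4 was lost when wild-type 24 h replicate 2 was left out. Mthfd2, a mitochondrial folate enzyme, was higher by 1.82, Slc7a5 and Slc7a1, amino acid transporters, by 1.70 and 1.14, and Hspa5, the chaperone BiP, by 0.74; Ddit3 was not called at 0.11. Of 27 hypoxia and glycolysis genes, 18 were higher and 4 lower (median 0.48), among them Hif1a, which had 11.45, 11.46 and 11.46 at 24 h and 10.43, 10.46 and 10.42 at 0 h, a difference of 1.02 (SE 0.05, adjusted p = 1.5e-12). Slc16a3, a lactate exporter, was higher by 1.53, Slc2a1, a glucose transporter, by 0.86 and Ldha, lactate dehydrogenase, by 0.62. Respiratory chain subunits were called in 9 of 34, with 5 higher and 4 lower and a median of 0.02. Fatty acid genes leaned the other way, with 9 of 17 lower, among them Acadm at -0.99 and Ppara at -0.84, and 2 higher, Angptl4 at 2.50 and Pdk4 at 1.07.

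Targets of the antioxidant factor NRF2 split, with 14 of 30 higher and 7 lower (median 0.14). Slc7a11, the cystine importer, had 9.89, 10.08 and 9.99 at 24 h and 5.96, 6.35 and 6.03 at 0 h, and differed by 3.87 (SE 0.15, adjusted p = 1.93e-14). Gsta4, a glutathione transferase for lipid aldehydes, had 11.84, 11.59 and 11.84 at 24 h and 8.03, 8.16 and 8.15 at 0 h, and differed by 3.64 (SE 0.09, adjusted p = 2.82e-17). Both were higher in every wounded array. Hmox1 differed by 2.05 and Gsr by 1.06, whereas Ephx1 had 8.63, 8.59 and 8.43 at 24 h and 9.76, 9.71 and 9.79 at 0 h, a difference of -1.20 (SE 0.06, adjusted p = 1.93e-12), and Gstm1 was lower at -0.90. Of 36 genes of detoxification and of steroid and retinoid metabolism, 17 were lower and 10 higher, with Sult1a1 at -1.43, Fmo2 at -1.36 and Adh1 at -0.89 below 0 and Dhrs9 and Cyp7b1 above it, at 2.43 and 2.11. Metallothioneins also split: Mt1 and Mt2 were higher by 0.99 and 0.61, and Mt4 was the gene with the largest decrease.

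Interferon-stimulated genes were higher in 25 of 30 and lower in 0 (median 1.07). Ifit1 had 8.66, 8.21 and 7.88 at 24 h and 5.63, 5.76 and 5.28 at 0 h, and differed by 2.69 (SE 0.31, adjusted p = 2.68e-07). Cxcl10, a chemokine for activated T cells, had 7.88, 8.52 and 7.71 at 24 h and 5.49, 5.30 and 5.59 at 0 h, and differed by 2.58 (SE 0.22, adjusted p = 3.01e-09). The groups did not overlap. Cxcl9 and Cxcl11, which interferon gamma induces, were not called, at 0.65 and 0.03, nor were Iigp1, Oas1a and Ifi27l2a. For Cxcl9 and Iigp1 the 3 values at 24 h all lay above the 3 at 0 h. Groups did not overlap in 48.9% of all genes. The SDs of Cxcl9 and Iigp1 in the 2 h wild-type arrays were 1.09 and 1.30. That spread enters their standard errors of 0.31 and 0.36. Circadian clock genes were lower in 12 of 17 and higher in 3 (median -0.58). Per3 at -1.28, Hlf at -1.05 and Arntl at -0.58 were lower, and Nfil3 and Bhlhe40 were higher by 1.47 and 1.13. The hour of day at which each ear was taken was not given in the sources used here, and its part in the clock genes was not tested.

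The comparison of 24 h with 2 h asked which of these genes had reached their level early. By its own test, 4209 genes (21.1%) were higher and 4075 (20.4%) lower at 24 h than at 2 h. Il6 averaged 8.27 ± 0.37 at 24 h and 8.96 ± 0.13 at 2 h (SD, n = 3 each), a difference of -0.69 (SE 0.22, adjusted p = 0.0144). Fos averaged 8.62 ± 0.15 at 24 h and 10.24 ± 0.09 at 2 h, a difference of -1.61 (SE 0.26, adjusted p = 2.41e-05). Tnfaip6 and Fosl1 were likewise lower at 24 h than at 2 h, by -1.07 (SE 0.20, adjusted p = 0.000152) and by -0.67 (SE 0.14, adjusted p = 0.000616), although all 4 genes were above their unwounded level at 24 h. Krt16 averaged 12.30 ± 0.15 at 24 h and 7.16 ± 0.40 at 2 h, a difference of 5.14 (SE 0.52, adjusted p = 5.28e-08). Cxcl5 averaged 9.87 ± 0.24 at 24 h and 4.99 ± 0.12 at 2 h, a difference of 4.87 (SE 0.10, adjusted p = 3.82e-18). Mmp13, Sprr2d and Wdr12 differed from 2 h by 4.26, 3.76 and 1.58, with means at 2 h of 5.70 ± 0.22, 6.87 ± 0.21 and 7.44 ± 0.14. Il1b and Ptgs2 lay between these patterns: their means at 2 h were 8.76 ± 0.16 and 9.76 ± 0.05, and they were higher still at 24 h by 2.75 and 1.31. Mt1 was not called against 2 h, with a difference of 0.01 (SE 0.08, adjusted p = 0.96).

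**Figure D4:**
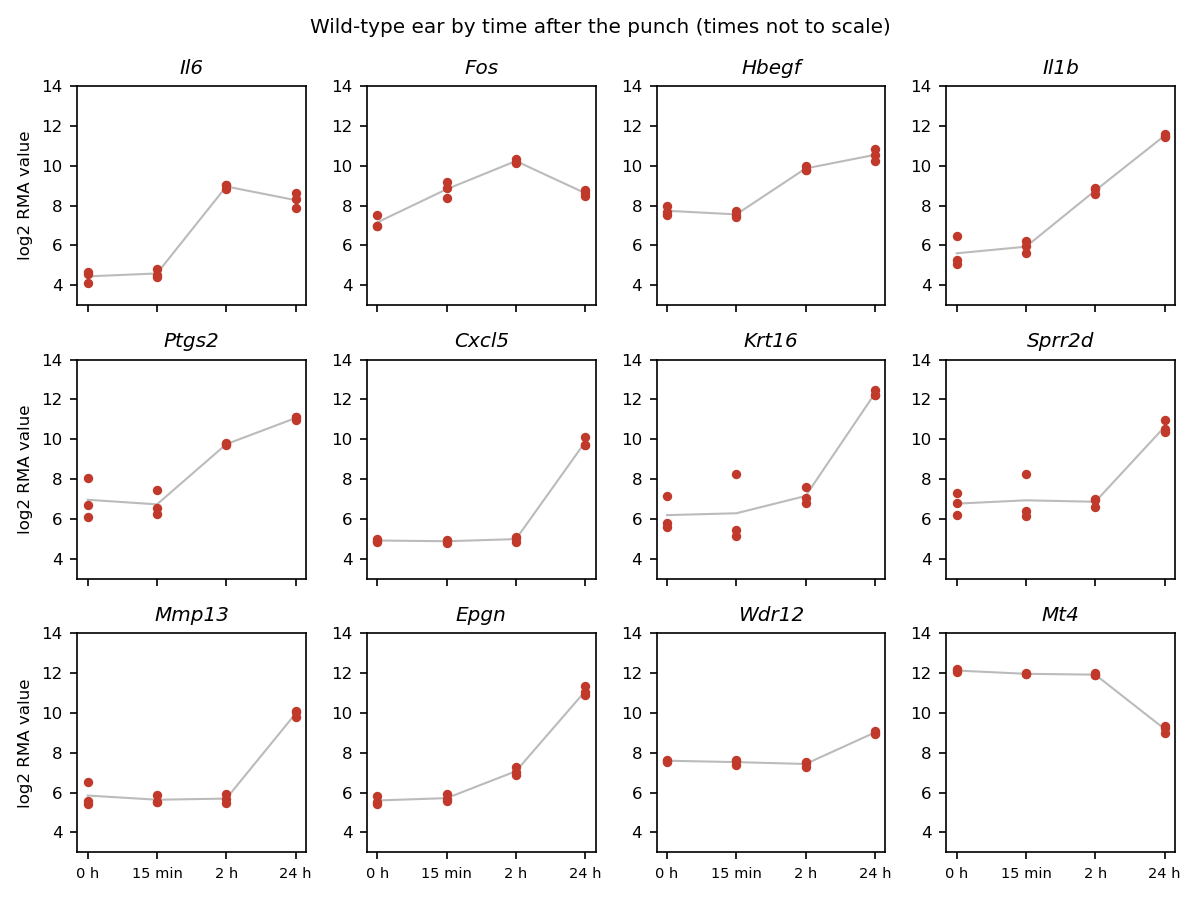
Log2 RMA values (y axis) of 12 genes in wild-type ears at 0 h, 15 min, 2 h and 24 h after the punch (x axis, not to scale); points are single arrays, 3 at each time, and lines join the means. Il6 and Fos are highest at 2 h, Il1b and Ptgs2 are higher at 2 h and higher again at 24 h, and Cxcl5, Sprr2d and Mmp13 stay near their 0 h level at 2 h and are high at 24 h.

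The wounding change was set beside that of cub mice, whose Rhbdf2 allele alters iRhom2, a partner of the sheddase ADAM17. Rhbdf2 averaged 8.32 ± 0.13 in cub ears at 24 h and 8.81 ± 0.22 in wild-type ears at 24 h, and at 0 h it averaged 9.11 ± 0.04 in cub and 8.70 ± 0.06 in wild type (SD, n = 3 each). Where its probes lie relative to the altered part of the allele was not known from the files, so these values do not check the genotype labels. Its own 24 h change differed between cub and wild type by -0.90 (SE 0.12, adjusted p = 0.000676). Of the 611 genes at least 2-fold higher in wild type, the mean change in cub was also upward for 610, and of the 267 genes at least 2-fold lower it was also downward for 267. These genes were chosen for large changes in wild type, and the same count over all genes was not made. The 24 h change differed between genotypes for 200 genes (1.0% of those tested), with a difference above 0 for 51 (0.256%) and below 0 for 149 (0.747%), cub minus wild type, where a value below 0 can be a smaller rise or a larger fall in cub; after median-centring of each array these were 69 and 120. Leaving out 1 array moved the count of 200 to between 83, without unwounded wild-type replicate 2, and 317, without cub 24 h replicate 2. Of the 611 genes, 19 rose more in cub and 7 less, and of the 267 genes, 15 fell more in cub and 1 less.

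Il24 had the most certain difference among the genes named here: its change was 4.13 in cub and 2.36 in wild type, a difference of 1.77 (SE 0.16, adjusted p = 7.32e-06). Chil3 changed by 4.10 in cub and 2.58 in wild type, a difference of 1.51 (SE 0.19, adjusted p = 0.000313), and Mmp3 by 3.47 in cub and 2.33 in wild type, a difference of 1.14 (SE 0.17, adjusted p = 0.00162). Slc7a11 changed by 4.93 in cub and 3.87 in wild type, a difference of 1.06 (SE 0.21, adjusted p = 0.0166). Levels at 0 h enter these differences. Mmp3 averaged 7.98 in cub and 8.97 in wild type at 0 h, and 11.45 and 11.30 at 24 h. Slc7a11 averaged 5.39 in cub and 6.11 in wild type at 0 h, and 10.32 and 9.99 at 24 h. Il24 averaged 4.96 in cub and 4.93 in wild type at 0 h, and 9.09 and 7.30 at 24 h. Pdk4, a kinase that holds back glucose oxidation, had changes of opposite sign, -0.80 in cub and 1.07 in wild type, a difference of -1.87 (SE 0.32, adjusted p = 0.00514). The Pdk4 mean was already higher in unwounded cub ears, at 10.05 against 7.36 in unwounded wild-type ears. At 24 h it was 9.26 in cub and 8.43 in wild type. Krt15 fell further in cub, with a change of -2.53 against -1.75 in wild type and a difference of -0.78 (SE 0.17, adjusted p = 0.0298). For Krt16, Il1b, S100a8 and Epgn the difference of the changes was 0.20, 0.70, 0.12 and -0.41, and none of the 4 passed this test, which does not show that the changes were equal.

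**Figure D5:**
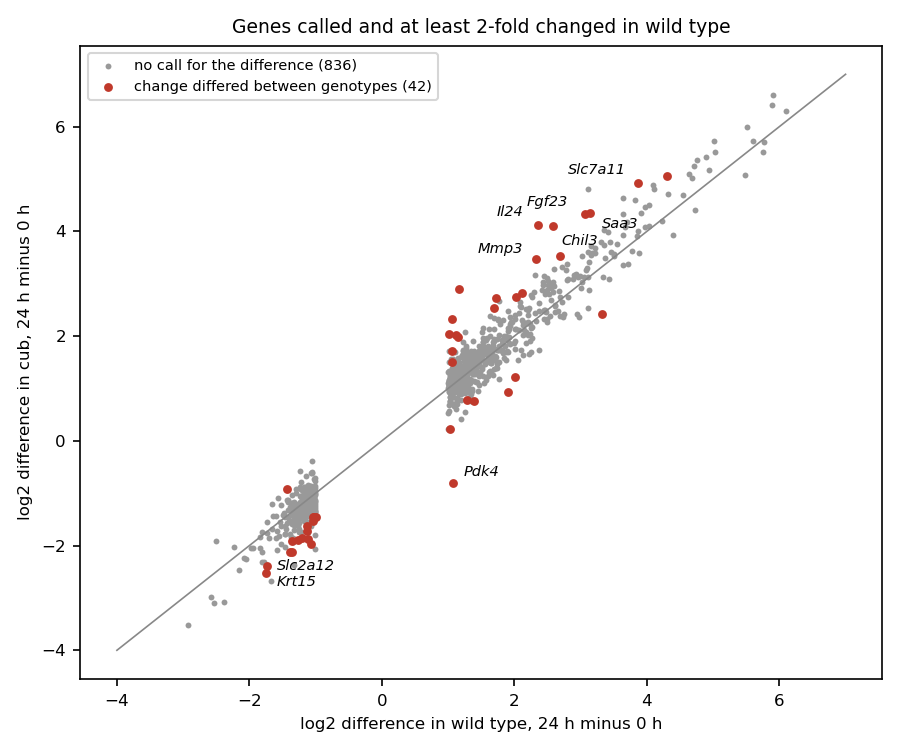
Log2 difference between 24 h and 0 h in cub (y axis) against that in wild type (x axis) for the 611 higher and 267 lower genes with at least a 2-fold change in wild type; red points are the genes whose change differed between genotypes and the grey line marks equal change. Nearly all points lie in the same direction in both genotypes, and Pdk4 lies below 0 in cub at -0.80.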

How the data were processed

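Total RNA from wild-type ears was measured at 24 h and 0 h (3 arrays each), with 2 h rims and cub ears for further comparisons. The deposited values were log2 levels from RMA; the submitters' processing notes name Affymetrix Expression Console 1.1. The sources used here do not give how probes were combined into rows. The design text names R/maanova comparisons between genotypes at each time, and these were not used here.

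Groups came from the array titles. Of 35556 rows, 21789 had 1 gene symbol, 1621 had several and 12146 were not named here, so names rest on the platform annotation; 21698 gene IDs matched the RefSeq gene table. Rows with 1 symbol were kept, and of 999 genes with several rows only the row with the highest mean was kept, for 19938 genes in all. All 23 arrays entered a group-means fit in limma 3.58.1 (R 4.3.3) with empirical Bayes moderation and Benjamini-Hochberg adjustment over all genes for each of 3 contrasts: 24 h against 0 h and 24 h against 2 h in wild type, and the difference of the 24 h change between cub and wild type. A gene was called at an adjusted p under 0.05. Each p-value sets a difference against the spread between arrays of the same group. That spread was pooled over the 8 groups of these 23 arrays and moderated across genes.

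The comparison, its members and the 55 gene lists were chosen with earlier results of these data known. Of 1294 listed symbols, 1198 genes were tested, 5 through an older symbol, and 95 were not analysed here. Genes were named as the 20 largest calls in each direction without overlap, the 6 largest called members of each list and the first 3 symbols of each list. Members singled out as lower, higher or not called in their list, the interferon gamma targets, and Rhbdf2, Osmr and Adam10 were named after their values were seen. The fit was tested on simulated data. Alternatives were other scalings, a filter on levels under 6, every row, only the arrays compared, other moderation, array weights, a replicate block and leaving out each array. The replicate numbers did not pair the arrays: deviations of 24 h and 0 h arrays with the same number correlated at -0.053, -0.014 and -0.035.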

Additional observations from a re-analysis of the deposited data

Results flagged for a closer look

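The genes below were picked out because their 24 h change differed between cub and wild-type ears by the limma test of the difference, with a Benjamini-Hochberg adjusted p under 0.05 (3 arrays in each of the 4 groups). Larger increases in cub were found for Il24, with a difference of 1.77, Chil3 with 1.51, Fgf23 with 1.27, Saa3 with 1.21, Mmp3 with 1.14, Slc7a11 with 1.06, Mmp1b with 0.84, Cyp7b1 with 0.70 and Gsr with 0.44 on the log2 scale. By that test the adjusted p was 7.32e-06 for Il24. It lay closer to the threshold for Cyp7b1 (0.0493), Mmp1b (0.0335), Saa3 (0.029) and Gsr (0.0225). Of these, Fgf23 changed by 4.33 in cub and 3.06 in wild type, and Saa3 by 4.34 in cub and 3.14 in wild type. Levels at 0 h enter these differences. Mmp3 averaged 7.98 in unwounded cub and 8.97 in unwounded wild-type ears, Slc7a11 5.39 and 6.11, and Il24 4.96 and 4.93.

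Il20ra, a receptor subunit for the Il24 product, had a difference of -0.90 (SE 0.18, adjusted p = 0.0166) and fell further in cub, by a change of -1.97 against -1.06 in wild type. Larger decreases in cub were also found for Krt15, with a difference of -0.78, Robo1 with -0.64 and Axin2 with -0.46. Their adjusted p-values in the limma test of the difference, 0.0298, 0.029 and 0.0409, were close to the threshold. Col12a1, a collagen of stressed tissue, changed by 0.25 in cub and 0.78 in wild type, a difference of -0.53 (SE 0.10, adjusted p = 0.00828). Pdk4 had changes of opposite sign, with a difference of -1.87, from 0 h means of 10.05 in cub and 7.36 in wild type. Rhbdf2, the gene of the cub allele, changed by -0.79 in cub and 0.11 in wild type, a difference of -0.90. With 3 arrays a group, single arrays far from their group were not searched for.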

How the results depend on the processing

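The 8543 calls of 24 h against 0 h ranged from 7796 to 8999 over the alternatives that kept 1 row per gene. Testing every row gave 9372 calls, which count rows and not genes. When 1 array was left out, the calls ranged from 7796 to 8035. Those against 2 h then ranged from 7533 to 7776. With the replicate block the counts were 8428, 8172 against 2 h and 161 for the genotype difference; it moved no count by over 1.5 times, and same-numbered arrays did not deviate together. For 24 h against 0 h, 223 of the 233 named genes called were called in each alternative that tested them. The exceptions were Krt10, Agpat2, Col2a1, Ereg, Ebp, F3, Mlana, Krt8, Alox5 and Ddit4. In that comparison no named gene changed sign while called. The calls of single genes for the genotype difference were not followed through the alternatives.

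The genotype difference moved most. Its 200 calls (51 higher, 149 lower) became 74 (24 and 50) with only the arrays compared, 131 (92 lower) with no moderation, and 437 (98 and 339) with array weights, and quantile normalization gave 86 higher. Leaving out 1 array gave 83 to 317 calls, 28 to 69 higher and 55 to 248 lower. The arrays that moved a count by over 1.5 times were wild-type 24 h replicate 2 (98 lower), cub 24 h replicates 1 (97 lower), 2 (317 calls) and 3 (102 calls), wild-type 0 h replicates 2 (83 calls) and 3 (111 calls), and cub 0 h replicates 1 (118 calls) and 2 (90 calls). The cause was not tested. Of the list counts and medians, 94 moved and 2381 did not. The number of arrays, 3 a group, limits the size of change that could be called.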

Other observations

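Further gene groups moved in both directions. Of 23 coagulation, platelet and complement genes, 10 were higher and 5 lower (median 0.05): the complement receptors C5ar1 and C3ar1, carried by myeloid cells, were higher by 2.20 and 2.01, and Procr and Thbd, which activate the anticoagulant protein C, by 1.69 and 1.44. Cd55, which shields cells from complement, had 7.49, 7.40 and 7.48 at 24 h and 8.67, 8.47 and 8.21 at 0 h, a difference of -0.99 (SE 0.10, adjusted p = 3.21e-08), with every wounded array lower. F3, tissue factor, was lower at -0.20, a call lost in 5 of the 15 other settings.

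Of 12 heat shock chaperones, 6 were higher and 3 lower (median 0.19). The mitochondrial pair Hspd1 and Hspe1 was higher by 0.85 and 0.65 and Hsp90aa1 by 0.99, while the small chaperone Hspb8 was lower at -0.67. Of 21 class 3 semaphorins, neuropilins and ephrins, 4 were higher and 9 lower (median -0.19). Sema3a, which repels axons, had 7.60, 7.72 and 7.66 at 24 h and 6.74, 6.78 and 6.66 at 0 h, a difference of 0.93 (SE 0.09, adjusted p = 1.85e-08), opposite in sign to Sema3d, and Robo1, a receptor for Slit proteins, differed by -0.98.

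Of 6 lymphatic endothelial genes, Pdpn and Lyve1 were higher by 2.18 and 1.16. Pdpn, podoplanin, is also carried by wound keratinocytes and fibroblasts. Prox1, the defining transcription factor of lymphatic endothelium, was not called at -0.15, nor was Flt4 at 0.13. Among 10 melanocyte genes, 1 was higher and 1 lower: Mlana at 0.47 and Mitf at -0.29. Mlana had 7.25, 7.59 and 7.03 at 24 h and 6.79, 6.60 and 7.07 at 0 h, groups that overlapped, and its call was lost in 5 of the 15 other settings. The pigment enzymes Tyr and Dct were not called.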
